A study of Mus musculus with 9 samples.

Results

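Small nucleolar RNAs (snoRNAs) and small Cajal body RNAs (scaRNAs) were examined in bulk RNA-seq of mouse CD4+ T cells recovered from inflamed colon. Members were the rows of the expression table whose symbol starts with SNORD, SNORA or SCARNA followed by a number, and this rule found 123 of 23415 rows. By symbol, 76 were box C/D RNAs (SNORD), 38 were box H/ACA RNAs (SNORA) and 9 were scaRNAs (SCARNA). The cells descended from naive CD4+ donor cells, CD25-negative and high for CD45RB, of CD160 knockout mice (4 libraries) or their wildtype littermates (5 libraries, called controls). Donor cells had been injected into Rag1-/- recipients, which have no T or B cells of their own, so both groups share the recipient genotype, the transfer and the resulting colitis. At peak disease 5000 CD4+ T cells per sample were sorted from the colon, and the labels state neither the deleted part of the CD160 gene nor whether each library came from a separate recipient. The p-values below therefore measure the spread between libraries, which may be partly technical.

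snoRNAs are short nuclear RNAs that guide chemical modification of ribosomal RNA by base pairing. Box C/D RNAs assemble with fibrillarin (Fbl) and direct 2′-O-methylation, box H/ACA RNAs assemble with dyskerin (Dkc1) and direct pseudouridylation, and scaRNAs do the same for spliceosomal RNAs in Cajal bodies. Most in vertebrates are cut out of introns of host genes, many of which encode ribosomal proteins. A few, among them Snord118 (U8) and Snord13 (U13), are transcribed from their own promoters and act in the cleavage, folding or acetylation of precursor or mature ribosomal RNA. Mature snoRNAs carry no poly(A) tail, while the libraries were labelled as polyA RNA, made with a full-length SMART-Seq2 protocol and a bead clean-up of the cDNA. The values are therefore levels of the molecules that this protocol captured, in the deposited unit TPM, a length-scaled share of all transcripts.

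The symbol classes were set against the conserved boxes in the GENCODE M21 (GRCm38) transcripts, which held 122 of the 123 members; Snord116 was not matched. Searched on the RNA's own strand, where TGATGA and CTGA can overlap as CTGATGA, the box C letters TGATGA with the box D letters CTGA in the last 25 bases were present in 51 of 75 SNORD members (68.0%). No SNORA member of 38 held this pair, and 365 of all 1507 annotated snoRNA genes did (24.2%). The letters ACA at 1 to 5 bases from the 3′ end were present in 36 of 38 SNORA members (94.7%), 5 of 75 SNORD members (6.67%) and 678 of the 1507 genes (45.0%). Such a match describes letters only. The following sequences, 5′ to 3′ from GENCODE M21, belong to members on which the comparison turns, with the box C and box D letters of box C/D RNAs and the ACA of the box H/ACA RNA in capitals.

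Snord118: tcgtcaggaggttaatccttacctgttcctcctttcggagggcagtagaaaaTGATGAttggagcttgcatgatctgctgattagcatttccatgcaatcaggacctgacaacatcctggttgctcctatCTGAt
Snord33: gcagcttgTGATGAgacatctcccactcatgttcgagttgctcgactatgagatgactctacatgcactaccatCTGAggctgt
Snord8: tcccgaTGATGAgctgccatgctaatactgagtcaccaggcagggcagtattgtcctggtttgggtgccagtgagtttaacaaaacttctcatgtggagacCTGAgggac
Snord14c: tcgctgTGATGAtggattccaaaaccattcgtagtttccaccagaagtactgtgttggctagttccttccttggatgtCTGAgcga
Snord14e: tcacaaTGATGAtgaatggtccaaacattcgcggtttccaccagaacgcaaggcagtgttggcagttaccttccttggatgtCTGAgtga
Snora24: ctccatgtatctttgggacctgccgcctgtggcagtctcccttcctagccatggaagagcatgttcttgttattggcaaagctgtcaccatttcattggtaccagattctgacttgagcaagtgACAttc

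Snord118 lies at chr11:69073427-69073561 on the plus strand of GRCm38. No annotated gene of its own strand surrounded it, and the nearest coding gene was Tmem107. Snord33 lies at chr7:45126864-45126947 (minus strand, overlapping an exon of a transcript of its host Rpl13a) and Snord8 at chr14:52209785-52209894 (minus strand, in an intron of Chd8). Snord14c (chr9:40803583-40803668) and Snord14e (chr9:40804748-40804837) lie on the plus strand and overlap exons of Hspa8 transcripts, and Snora24 (chr3:123507937-123508066, minus strand) overlaps an exon of the non-coding gene Snhg8.

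Detection was sparse. Of 1107 member values, 715 (64.6%) were listed at 0. Among box C/D members 30 of 76 (39.5%) were at 0 in all 9 libraries, against 7 of 38 box H/ACA members (18.4%) and 2 of 9 scaRNAs (22.2%). At the other end, 16 members reached at least 1 TPM in every library, 7 of them box C/D, 9 box H/ACA and none Cajal body. The classes also differ in length, with a median of 81 bases for box C/D, 132 for box H/ACA and 140 for scaRNAs, and the part of length in detection was not tested. An exact 0 in such a table can be an estimate that failed as well as an absent RNA.

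The knockout libraries held 27, 42, 46 and 41 members at 1 TPM or more, and the control libraries 59, 43, 51, 37 and 43. Control 1 was highest and knockout 1 lowest, and the groups overlapped. Box C/D members numbered 13, 21, 26 and 21 in the knockouts and 34, 20, 24, 22 and 21 in the controls. Box H/ACA members numbered 14, 19, 18 and 18 against 21, 21, 24, 15 and 21. No more than 4 scaRNAs were detected in any library, and knockout 1 and control 4 held none.

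**Figure D1:**
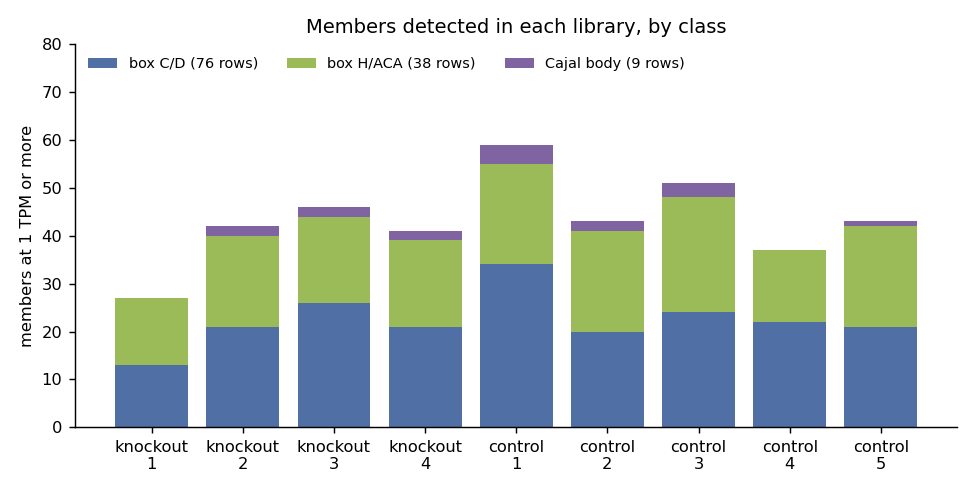
Number of members at 1 TPM or more (vertical axis) in each of the 9 libraries (horizontal axis), as bars stacked from box C/D, box H/ACA and Cajal body RNAs. Control 1 holds the most (59) and knockout 1 the fewest (27), and the other libraries of both groups lie between 37 and 51.

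Control 1 stood apart in the whole table, so results are given with and without it. It had 7308 genes at 1 TPM or more, against 11088 to 11711 in the others, and 55.4% of its TPM lay in genes with transcripts under 1000 bases, against 26.8 to 31.4% elsewhere. Cd160 itself was 14.5, 5.44, 7.51 and 18.8 TPM in the knockout libraries and 31.8 to 212 TPM in the controls, so the groups did not overlap. Dropping control 1 moved the median log2 difference (knockout minus control) over all tested rows from 0.46 (11495 rows) to −0.01 (11457 rows). Differences with all 9 libraries are thus read against 0.46.

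Snord118 and Snord13 dominated the family. Together they made up 58.9 to 62.9% of the summed member TPM in the knockout libraries, 62.9 to 71.4% in controls 2 to 5 and 88.3% in control 1. Snord118, which acts in processing of large-subunit ribosomal RNA, was at 381, 537, 609 and 534 TPM in the knockouts and at 6136, 1058, 963, 726 and 626 TPM in the controls. Every control value lay above every knockout value, with control 1 far above the rest and control 5 close to knockout 3. Snord13, which pairs with small-subunit ribosomal RNA, was at 1080, 1227, 1525 and 1070 TPM in the knockouts and at 9703, 2008, 1990, 1990 and 1529 TPM in the controls. The groups again did not overlap, although knockout 3 (1525 TPM) all but touched control 5 (1529 TPM).

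**Figure D2:**
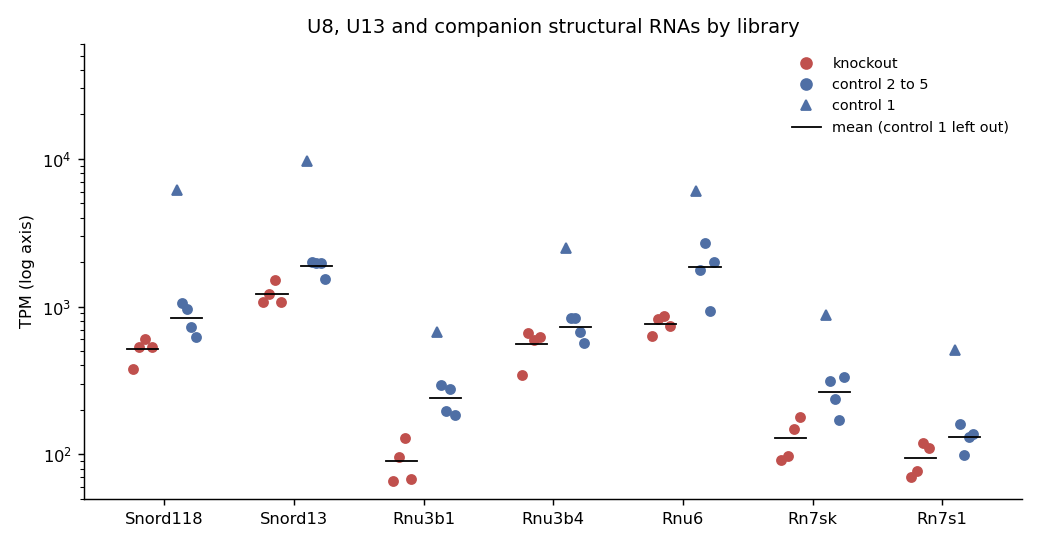
TPM (log axis) of Snord118 (U8), Snord13 (U13) and 5 other structural RNAs in each knockout library (red), controls 2 to 5 (blue circles) and control 1 (triangle), with lines at the group means without control 1. For Snord118 and Snord13 all controls lie above all knockouts, control 1 far above at 6136 and 9703 TPM, and the gap between knockout 3 and control 5 is narrow for Snord13.

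Without control 1, Snord118 averaged 515 ± 95.8 TPM in the knockouts (SD, n = 4) and 843 ± 201 TPM in the controls (SD, n = 4), 1.64-fold higher in the controls. Its difference on the log2(TPM + 1) scale was −0.70 (SE 0.19, 95% interval −1.14 to −0.26) and did not pass the test (limma, adjusted p = 0.185). Snord13 averaged 1225 ± 212 TPM (SD, n = 4) against 1879 ± 234 TPM (SD, n = 4), 1.53-fold higher in the controls, with a log2 difference of −0.62 (SE 0.14, 95% interval −0.93 to −0.32; limma adjusted p = 0.131). With all 9 libraries the differences were −1.28 (SE 0.58) for Snord118 and −1.10 (SE 0.47) for Snord13, with limma adjusted p of 0.745 and 0.735. An exact two-sided permutation test of either RNA alone gave the smallest p it can reach, 0.0159 with 9 libraries and 0.0286 with 8, before any allowance for the number of members examined. Groups without overlap always give this smallest p, so it adds nothing to the lack of overlap. After median-of-ratios scaling of the TPM the groups overlapped for both: with 8 libraries the highest knockout and lowest control value were 609 and 599 for Snord118, and 1527 and 1461 for Snord13.

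Across the family no member passed the adjusted threshold of 0.05 (limma, Benjamini-Hochberg over all rows) with 9 or with 8 libraries. Of all tested rows 0.0174% passed with 9 libraries and 0.0262% with 8. The filter, at least 1 TPM in at least 4 libraries, left 46 members for testing: 22 box C/D, 22 box H/ACA and 2 scaRNAs. Of these, 6 reached 1 TPM in only 1 knockout library (Snora17, Snora21, Snora74a, Snord2, Snord8 and Snord83b) and none was so limited among the control libraries. Members that pass through their control values in this way must have low knockout values, so the counts below describe the tested members and are no support for a direction.

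At an unadjusted p under 0.05 (limma), 6 tested members were lower in the knockouts, beside 0.618% of all rows, and 2 were higher, beside 5.78% of all rows. Without control 1 there were 6 lower and 1 higher, and all rows then gave 4.41% lower and 8.44% higher. The count of 6 lower members became 2 without knockout 1, 2 without knockout 4 and 3 without control 2, while the higher count became 1 without knockout 2, knockout 3 or control 2. Groups that did not overlap were found for 3 members lower in the knockouts (Snord118, Snord13 and Snord33), beside 1.05% of all rows, and for 1 higher (Snord14c), beside 3.88% of all rows. The same counts held without control 1, beside 3.01% and 4.01% of all rows. Leaving out knockout 3 raised the lower count to 5, and leaving out control 4 raised it to 6. Without knockout 4 the higher count was 2, and median-of-ratios scaling of 9 libraries left 1 lower and 0 higher.

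**Figure D3:**
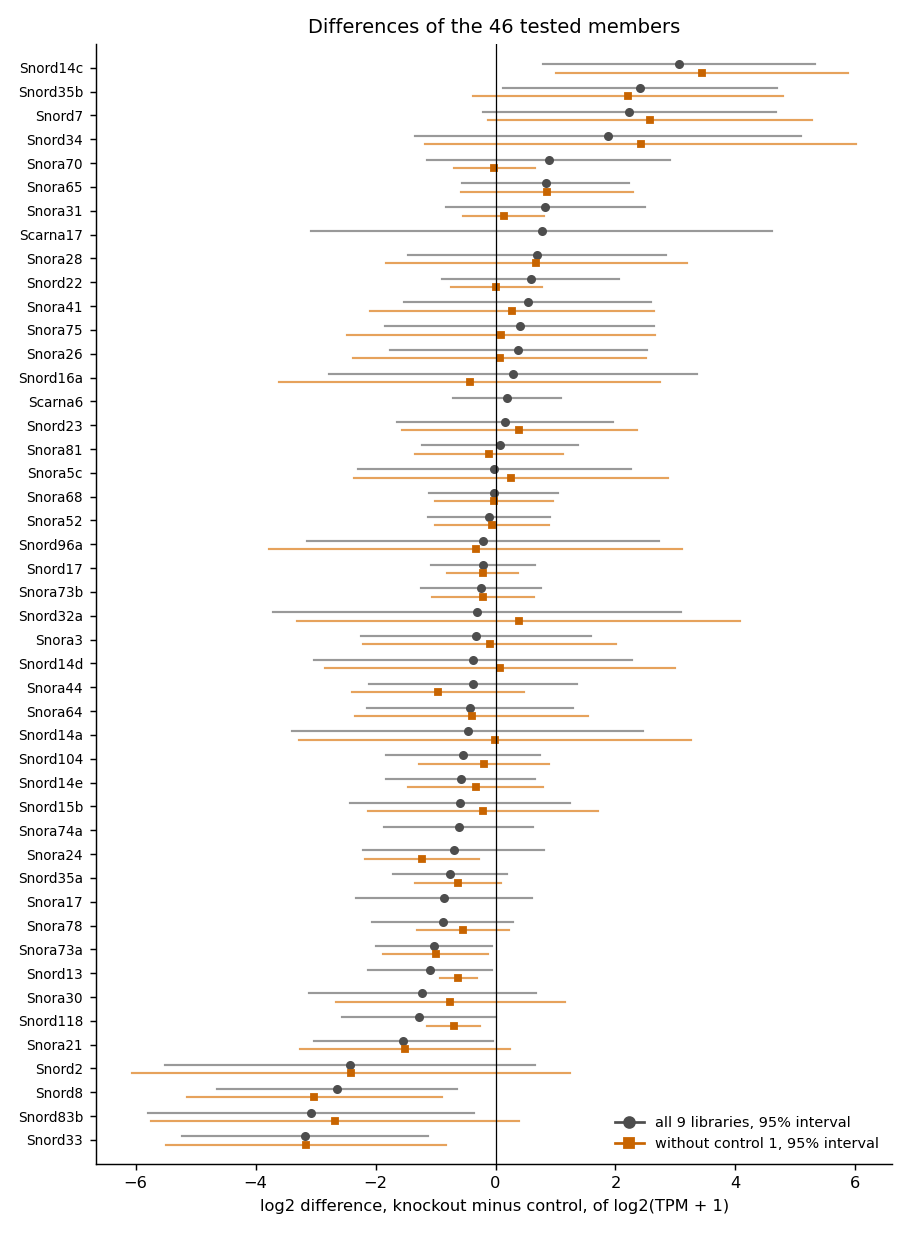
Difference of mean log2(TPM + 1), knockout minus control, for each tested member with its 95% interval, from all 9 libraries (circles) and without control 1 (squares). With 9 libraries Snord14c and Snord35b lie farthest to the higher side and Snord33 and Snord83b farthest to the lower side, most intervals include 0, and no member passed the adjusted test.

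By class, the median log2 difference without control 1 was −0.21 over 22 tested box C/D members and −0.08 over 20 tested box H/ACA members, beside −0.01 over all tested rows. With 9 libraries these medians were −0.42, −0.17 and 0.46. Negative differences were found for 15 of 22 box C/D and 14 of 22 box H/ACA members with 9 libraries, beside 13.3% of all tested rows. With 8 libraries they were found for 14 of 22 and 13 of 20, beside 52.5% of all tested rows. Members that passed the filter through their control values are among them, so neither these counts nor the medians support a direction. Summed box H/ACA TPM was 350, 275, 283 and 345 in the knockouts and 282, 286, 392, 338 and 353 in the controls. The sums overlapped, and control 1 was among the low values, unlike its place for Snord118 and Snord13.

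The most negative differences among box C/D members were those of Snord33, Snord83b and Snord8. All lay within host genes, as did 115 of the 122 matched members. Snord8 and Snord83b each reached 1 TPM in only 1 knockout library and passed the filter through their control values. Their low knockout values therefore follow from the filter. Snord33, a ribosomal RNA methylation guide within Rpl13a, was at 0, 25.6, 12.2 and 0 TPM in the knockouts and at 40.7, 29.7, 40.2, 39.4 and 42.2 TPM in the controls. All control values were higher, and 2 knockout libraries were at 0. The knockouts averaged 9.46 ± 12.2 TPM (SD, n = 4), against 38.4 ± 4.98 TPM (SD, n = 5) in the controls. The log2 difference was −3.18 (SE 0.93; limma adjusted p = 0.595), and −3.15 (SE 1.03; limma adjusted p = 0.246) without control 1. The exact permutation p of 0.0159 follows from the lack of overlap, and Snord14c below had the same p in the other direction. Snord33 stayed lower in every knockout library after median-of-ratios scaling, with 9 and with 8 libraries. Snord8, within Chd8, was at 0, 0, 18.9 and 0 TPM in the knockouts and at 3.58, 7.58, 20.8, 19.7 and 21.5 TPM in the controls. Knockout 3 reached the control range and the other knockouts were at 0, for a log2 difference of −2.64 (SE 0.91; limma adjusted p = 0.646) and of −3.02 (limma adjusted p = 0.228) without control 1. Snord83b, within the ribosomal protein gene Rpl3, was at 0, 0, 15.7 and 0 TPM against 51.6, 57.1, 17.1, 25.4 and 0 TPM. Its groups overlapped because control 5 was at 0, and the log2 difference was −3.08 (limma adjusted p = 0.701). Without control 1 it was −2.68, and the unadjusted p (limma) went from 0.0299 to 0.0793.

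On the higher side, Snord14c, a guide within the heat shock protein gene Hspa8, was at 60.0, 41.0, 58.99 and 37.2 TPM in the knockouts and at 16.4, 11.9, 0, 31.4 and 0 TPM in the controls. Every knockout value exceeded every control value. The knockout mean was 49.3 ± 11.9 TPM (SD, n = 4), that of the controls 11.9 ± 13.1 TPM (SD, n = 5), with a log2 difference of 3.06 (SE 1.03; limma adjusted p = 0.629) that was 3.45 without control 1 (limma adjusted p = 0.229). Snord35b was at 60.0, 92.1, 88.5 and 24.8 TPM against 5.49, 11.9, 0, 47.0 and 45.0 TPM. Knockout 4 lay inside the control range, and the log2 difference was 2.41 (SE 1.04; limma adjusted p = 0.736). Leaving out control 1 gave 2.21, with the unadjusted p (limma) moving from 0.0406 to 0.0844. Snord7 was at 54.3, 21.7, 14.0 and 43.8 TPM against 15.8, 0, 38.3, 0 and 15.9 TPM, with overlapping groups and a log2 difference of 2.23 (limma adjusted p = 0.745), or 2.58 (limma adjusted p = 0.414) without control 1.

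These values are coarse. For Snord14a, Snord14c, Snord14d and Snord35b, chosen for this check after their values were seen and 86 or 87 bases long, all 29 values above 0 were whole multiples (within 0.03) of a single step per library. The step was 5.49 TPM in control 1 and 22.5 TPM in control 5, and no value exceeded 10 steps. How many reads make a step is not known. For Snord14c the gap between the highest control (31.4 TPM, control 4) and the lowest knockout (37.2 TPM, knockout 4) was smaller than a step. The step was 15.7 TPM in control 4 and 12.4 TPM in knockout 4. Counted in steps, control 1 was level with knockouts 1 and 4, so the groups were apart in TPM only. Its sequence is also 97.7% identical to that of Snord14d, so reads could be split between the pair.

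Signs are taken against 0 here. Of the 4 hosts with more than 1 tested member, Hspa8, Rpl13a and Eif4a2 carried members with differences of both signs in the 9 libraries, while both members of Rcc1 (Snora73a and Snora73b) were negative. None passed the test. Snord14d, in the same gene as Snord14c, was at 0, 10.2, 39.3 and 12.4 TPM in the knockouts and at 38.5, 11.9, 10.8, 31.4 and 0 TPM in the controls, with a log2 difference of −0.37. Snord14e, 79.6% identical to Snord14c, was at 50.1, 78.4, 193 and 63.3 TPM against 249, 101, 45.9, 159 and 163 TPM, with a difference of −0.58. Their groups overlapped, and without control 1 the values for Snord14d and Snord14e were 0.08 and −0.33, beside 0.34 for Hspa8. Within Rpl13a, Snord33 (−3.18), Snord34 (1.88), Snord35a (−0.76) and Snord32a (−0.31) also had both signs. Without control 1 they were at −3.15, 2.42, −0.63 and 0.38. Snord35a was at 36.5, 47.1, 90.6 and 34.3 TPM in the knockouts and at 117, 98.6, 59.6, 57.6 and 93.3 TPM in the controls. The Rpl13a mRNA, encoding a large-subunit ribosomal protein, was at 3967 ± 316 TPM in the knockouts (SD, n = 4) and 4075 ± 223 TPM in controls 2 to 5 (SD, n = 4), a log2 difference of −0.04 without control 1. In Eif4a2, a translation initiation factor gene, Snord2 had a difference of −2.42 and Snora81 one of 0.08. Read against the median of all tested rows, both lay on the lower side, at −2.88 and −0.38. Without control 1 both were negative, at −2.41 and −0.10. Like Snord8, Snord2 passed the filter through its control values.

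**Figure D4:**
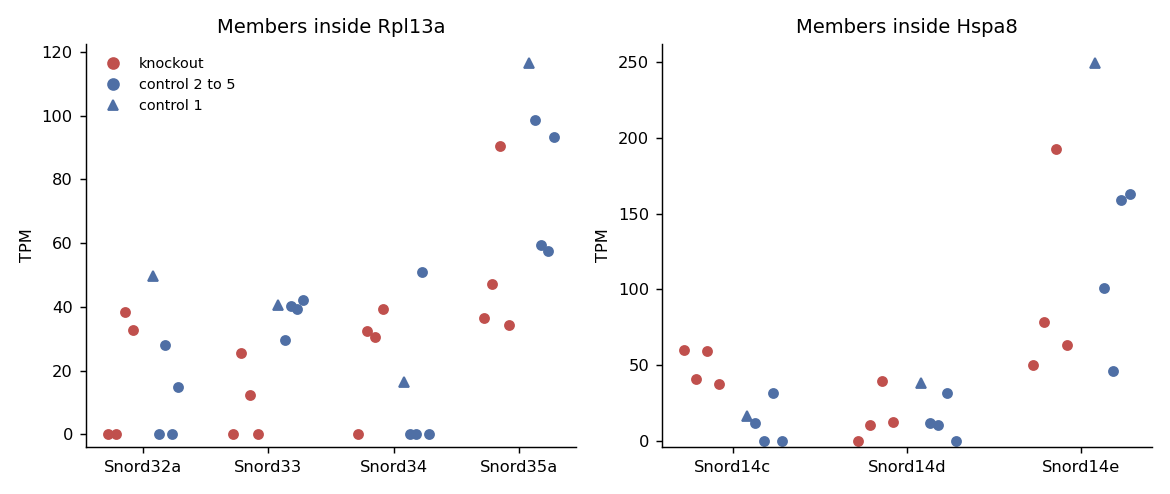
TPM (vertical axis) of tested members inside Rpl13a (left) and Hspa8 (right) in each knockout library (red), controls 2 to 5 (blue circles) and control 1 (triangle). Snord33 is lower in every knockout library and Snord14c higher in every one, while the groups overlap for the other 5 members.

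Among box H/ACA members, Snora24, within Snhg8, was at 14.4, 25.6, 8.35 and 44.8 TPM in the knockouts and at 6.57, 52.8, 39.9, 46.1 and 49.95 TPM in the controls. Control 1 was the lowest of all 9 libraries and knockout 4 lay inside the range of controls 2 to 5. Its log2 difference was −0.70 with all libraries and −1.23 (SE 0.42; limma adjusted p = 0.273) without control 1. Snora73a, within Rcc1, a gene for the nucleotide exchange factor of Ran, was at 6.15, 4.88, 8.24 and 2.42 TPM against 12.4, 10.1, 16.5, 5.54 and 15.6 TPM. The groups overlapped only through control 4, and the log2 difference was −1.03 (SE 0.44; limma adjusted p = 0.736), or −0.995 (limma adjusted p = 0.3198) without control 1. Snora73b is 96.6% identical to Snora73a and lies in the same host. It was at 24.7, 10.8, 9.16 and 14.5 TPM against 17.6, 7.83, 24.1, 18.0 and 19.4 TPM, a difference of −0.24 that was −0.21 without control 1. Reads could be split between these copies. Snora21, within Rpl23, was at 0, 2.97, 0 and 0 TPM against 3.42, 3.45, 3.21, 0 and 13.1 TPM, with a difference of −1.54 (limma adjusted p = 0.745). It was −1.51 without control 1, where the unadjusted p (limma) was 0.0823 in place of 0.0439. Like Snord8, Snora21 passed the filter through its control values.

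Several of the remaining members were abundant, and none passed the test. Snord104, which has no host of its own strand, was at 129, 144, 117 and 249 TPM in the knockouts and at 597, 356, 149, 255 and 67.5 TPM in the controls. The highest and the lowest value were both in controls, and the difference without control 1 was −0.19. Snora68, at a mean of 61.6 TPM, had a difference of −0.02 without control 1, with a 95% interval of −1.001 to 0.96 that leaves room for a change of about that size either way. Snora31, within Tpt1, was at 0.13, Snora78 at −0.54 and Snora65 at 0.86 (SE 0.63) in the same comparison.

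The scaRNAs were the thinnest class. Scarna17 was at 0, 88.9, 41.7 and 0 TPM in the knockouts and at 44.7, 0, 45.2, 0 and 0 TPM in the controls, so 2 libraries of each group carried it. Scarna6 never exceeded 1.85 TPM. Scarna2 was above 0 only in control 3 (49.1 TPM) and Scarna10 only in control 2 (26.8 TPM), while Scarna3a and Scarna9 were listed at 0 throughout. These values allow no comparison between the groups.

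By annotation, 61 members lay within an intron of a gene of the same strand, 54 overlapped an exon of at least 1 transcript of such a gene, and 7 had no such gene around them. Of the intronic members 16 (26.2%) passed the filter, against 25 (46.3%) of those overlapping an exon and 5 of the 7 without a surrounding gene. For the exon-overlapping members, reads of a spliced host transcript and of the small RNA cannot be told apart. Host expression differed with detection: the median host level, averaged over 9 libraries, was 1767 TPM for members at 1 TPM in at least 4 libraries, 59.1 TPM for those so in 1 to 3 libraries and 48.2 TPM for those never reaching it. The median lengths of these 3 sets were 128.5, 88.5 and 78 bases, so length moved with host level. The ranges of host levels overlapped widely.

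**Figure D5:**
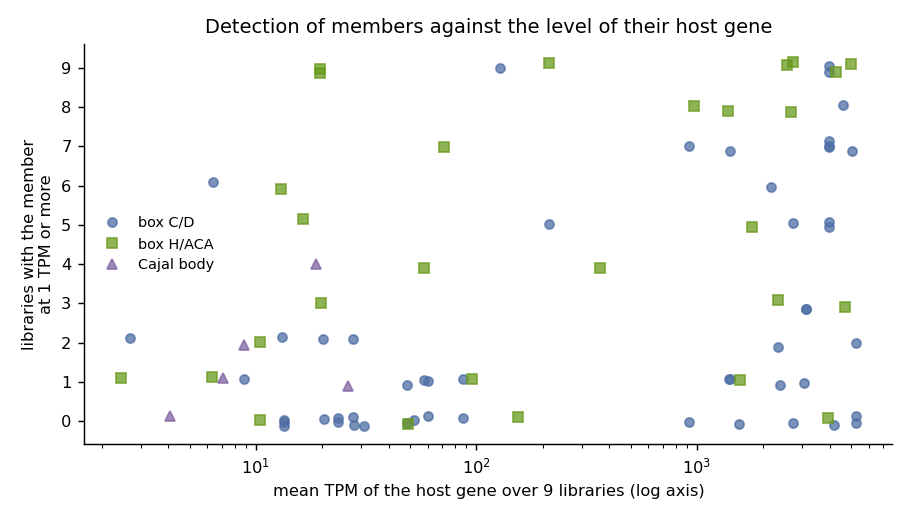
Mean TPM of the host gene over 9 libraries (log axis) against the number of libraries in which the member reached 1 TPM, by class, with points spread slightly in height to show ties. Members seen in most libraries tend to have hosts of high level, with medians of 1767, 59.1 and 48.2 TPM in the 3 detection sets, and the highest host levels also occur among members listed at 0; Snora35, whose host Htr2c is close to 0, is not drawn.

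Hosts varied less than their members. The host differences spanned −0.25 to 0.76 without control 1, far narrower than those of the members. The sign, taken against 0, was shared by 17 of 32 tested pairs (15 of 33 with 9 libraries). In control 1 the host lay below controls 2 to 5 for 27 of 33 pairs. The member then lay below them in 3 of the 27, within their range in 18 and above it in 6. A member at 0 in any of controls 2 to 5 could not lie below them. These counts therefore do not show how often a low host goes with a low member. Tpt1 was at 1130 TPM in control 1, against 2976 ± 250 TPM in controls 2 to 5 (SD, n = 4), and its member Snora31 was low with it, at 2.47 against 39.0 ± 11.3 TPM (SD, n = 4). Hspa8 was at 163 TPM in control 1, against 3901 ± 619 TPM in controls 2 to 5 (SD, n = 4), while Snord14e was at 249 TPM, its highest value in any library. Rcc1 was at 1.38 TPM in control 1 and 23.5 ± 4.94 TPM in controls 2 to 5 (SD, n = 4), with Snora73a and Snora73b inside their control ranges.

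Other structural RNAs with their own promoters had values on the same side as U8 and U13. Of a list of 24, 14 had a row, giving 8 distinct tested RNAs outside the family, and all 8 were lower in the knockouts with 9 and with 8 libraries. None passed the adjusted test, and at an unadjusted p under 0.05 (limma) there were 4 of 8 lower with 9 libraries, beside 0.618% of all rows, and 5 of 8 lower without control 1, beside 4.41%. The U3 RNA Rnu3b1, a box C/D RNA of the ribosomal RNA processing complex, was at 66.6, 96.3, 129 and 68.0 TPM in the knockouts and at 678, 295, 198, 279 and 185 TPM in the controls. No value overlapped, and the log2 difference without control 1 was −1.42 (limma adjusted p = 0.103). Rnu6, the spliceosomal U6 RNA, was at 630, 821, 871 and 736 TPM against 6036, 1760, 2708, 934 and 2022 TPM, again without overlap, with a difference of −1.19 (limma adjusted p = 0.154). Rnu3b2 and Rnu3b3 had the same values as Rnu3b1 in every library. For the other U3 rows the groups overlapped. Rnu3b4, the most abundant, was at 346, 666, 594 and 624 TPM in the knockouts and at 2503, 839, 840, 678 and 572 TPM in the controls. Without control 1 its log2 difference was −0.42 (limma adjusted p = 0.475), and that of Rnu3a −0.96 (limma adjusted p = 0.499). The list median without control 1 was −0.99, beside −0.01 over all rows. In the same comparison Rn7sk, a regulator of transcription elongation, was at −1.03, and Rn7s1, the signal recognition particle RNA, at −0.49.

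Short rows outside the family were unevenly placed. Without control 1, 45 of 60 tested non-member rows with transcripts under 200 bases had negative differences (75.0%), beside 52.5% of all tested rows. Their median was −0.47, against −0.20 for 200 to 500 bases and −0.01 for 2000 bases or more. The parts differed: 10 of 10 T cell receptor J segments were negative (median −2.36) and 8 of 8 small nuclear RNAs (median −0.93), against 25 of 39 microRNA genes (median −0.30). The small nuclear RNAs may include structural RNAs already counted above. The share of TPM in such short non-member rows was 0.318 to 0.5999% in the knockouts, 0.608 to 0.928% in controls 2 to 5 and 1.40% in control 1, with no overlap between the groups. The part of this in the Snord118 and Snord13 values was not tested.

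Cell type markers also differed in level between the groups. All 8 macrophage and monocyte markers had higher means in the knockouts, and none passed the adjusted test (limma) with or without control 1. Their sum ranged from 8410 to 15096 TPM in the knockouts, against 2330 to 9369 TPM in controls 2 to 5 and 1001 TPM in control 1. Control 2 had the highest sum of the controls, above knockout 2. Its Snord118 (1058 TPM) was the highest of controls 2 to 5, and its Snord13 (2008 TPM) was close to controls 3 and 4 (1990 TPM each). A single library cannot relate these RNAs to the cells. The 7 CD4 T cell markers, all with a row, summed to 4145 to 5194 TPM in the knockouts, 4965 to 5888 TPM in controls 2 to 5 and 1865 TPM in control 1. Without control 1 all 7 had negative differences, with a median of −0.22. Stromal markers were higher for 4 of 4 (median 0.94) and epithelial markers for 3 of 4 tested (median 0.75), with sums of at most 126 TPM for either list and for dendritic markers. Of 4 B cell markers Ms4a1 was at 0 in every library, and the only tested marker, Cd79b, averaged 9.04 TPM in the knockouts and 4.04 TPM in controls 2 to 5. CD8 markers summed to 5.57 to 87.4 TPM. The part of these cells in the snoRNA values was not tested, and in bulk libraries fewer cells of a type and less RNA per cell cannot be told apart.

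The proteins that carry the guides did not pass the test in either fit. With control 1 left out, the median log2 difference was −0.08 over 4 box C/D core proteins, −0.04 over 4 box H/ACA core proteins, −0.04 over 16 assembly and trafficking factors and −0.11 over 8 factors of 3′ end processing. Unadjusted p under 0.05 (limma) was reached by 3 of these 32, all lower, beside 4.41% of all rows lower and 8.44% higher, so the count is near the background: Nhp2l1 (−0.20), which binds the box C/D kink-turn, Nop10 (−0.30), a subunit of the H/ACA particle, and Znhit3 (−0.30), a box C/D assembly factor. With 9 libraries none of them reached it. Fibrillarin (Fbl) was at 0.27 and dyskerin (Dkc1) at 0.10 without control 1. A further list of 24 host genes, mostly non-coding, had 2 with a row: the non-coding Snhg11 and the protein-coding Cwf19l1. Snhg11 was at 1.73 ± 0.37 TPM in the knockouts (SD, n = 4) and 2.54 ± 0.20 TPM in controls 2 to 5 (SD, n = 4), a log2 difference of −0.39 (limma adjusted p = 0.323). Cwf19l1 was at 5.85 ± 1.2 TPM (SD, n = 4) against 8.33 ± 0.83 TPM (SD, n = 4), a log2 difference of −0.46 (limma adjusted p = 0.288). Neither pair of groups overlapped without control 1, and with 9 libraries the differences were −0.45 and 0.11. The other listed hosts, Gas5 and Snhg8 among them, were not analysed here.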

How the data were processed

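Deposited values are TPM per gene and library, made by the authors with Trimmomatic 0.32, Bowtie2 2.2.9 and RSEM 1.2.31 on GRCm38, per the submitters' processing notes, which give no order or settings. TPM keep no read depth, so the depth behind a value is unknown. TPM were analysed as log2(TPM + 1), which understates differences of low rows, with limma 3.58.1 (R 4.3.3; empirical Bayes with intensity trend) on rows at 1 TPM or more in at least 4 of 9 libraries, Benjamini-Hochberg over all rows, threshold 0.05, and again on the 8 libraries without control 1. The step was tested on simulated data. Single members also had an exact permutation test (scipy 1.17.1). GENCODE M21 gave sequences, lengths and hosts; some sequences and hosts are not reported here.

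Members and lists (machinery, host, structural RNA and cell type markers) were chosen with earlier results of these data known. Named members came from those with the smallest p, the highest mean, detection in every library or groups without overlap. Alternatives were a pseudocount of 0.1 or 5, a 5 TPM filter or none, median-of-ratios and quantile scaling, robust fitting, a replicate block and leaving out each library.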

Additional observations from a re-analysis of the deposited data

Results flagged for a closer look

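A value was taken up here when the highest or lowest library of a group stood far from the others by Dixon's criterion, which by chance picks about 1 in 20 groups. It picked 17 of 76 group values, and 11 of these were in control 1. The chance rate holds for normally distributed values and RNAs not chosen by their results. A group with a single value above 0 is always picked, so 17 of 76 cannot be set against 1 in 20. In control 1 the high values were Snord118 (6136 TPM, other controls 626 to 1058), Snord13 (9703 TPM, other controls 1529 to 2008) and Snora78 (54.6 TPM, other controls 11.9 to 20.7). Of the companion RNAs, Rnu3b1 (678 TPM), Rnu3b4 (2503 TPM), Rn7sk (885 TPM), Rn7s1 (509 TPM) and Rnu12 (421 TPM) were also high there. The summed TPM of all members (17947) and of the members other than Snord118 and Snord13 (2108) were high in the same library. Snora24 was low in control 1 (6.57 TPM, other controls 39.9 to 52.8).

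Elsewhere, Snord33 was low in control 2 (29.7 TPM, other controls 39.4 to 42.2). Among the knockouts, knockout 3 alone carried Snord8 (18.9 TPM) and Snord83b (15.7 TPM), and knockout 2 alone carried Snora21 (2.97 TPM) and Snord2 (56.4 TPM), the other knockout libraries being at 0. Snora21 was high in control 5 (13.1 TPM, other controls 0 to 3.45).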

How the results depend on the processing

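No member passed the adjusted test under any of the 20 alternatives run. Of 34 named RNAs, 29 kept the direction of their difference in all of them and 5 did not. The number of members lower at an unadjusted p under 0.05 (6) was 2 to 7 when single libraries were left out. The number higher (2) was 1 with a pseudocount of 0.1 or with no filter, 0 with median-of-ratios or quantile scaling, 1 to 2 when single libraries were left out, and 1 without control 1 combined with median-of-ratios scaling or no filter. The number of all genes past the adjusted threshold (2) was 1 with a pseudocount of 5 or quantile scaling, 0 with no filter or a 5 TPM filter, 0 to 3 when single libraries were left out, and 4 and 1 without control 1 combined with median-of-ratios scaling and with no filter. The number of genes of the pathway lists lower at an unadjusted p under 0.05 (4) was 3 to 10 when single libraries were left out, and 9 and 10 without control 1 combined with median-of-ratios scaling and with no filter. Members without overlap numbered 1 lower (3) and 0 higher (1) after median-of-ratios scaling, and 3 to 6 lower and 1 to 2 higher when single libraries were left out. The cause was not tested for any of these.

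No pairing by replicate number was seen: deviations of same-numbered libraries correlated at -0.14 to -0.02, and those of differently numbered ones at -0.19 to 0.195. So few correlations cannot exclude a pairing. With the replicate block, 8 members were lower and 4 higher at an unadjusted p under 0.05 (8 and 3 without control 1), and 0 of all genes passed the adjusted threshold with or without control 1.

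The 5 RNAs that reversed had small differences. Snord14d was at -1.25 to 0.68 when single libraries were left out, positive without knockout 1, control 1 or control 4, and without control 1 it was at 0.10 with the replicate block, 0.069 with median-of-ratios scaling and 0.077 with no filter. Snord14e was at 0.12 without control 1 and with the block. Snora68 was at -0.38 to 0.22 when single libraries were left out, positive without knockout 2, knockout 3 or control 3, and at 0.0033 without control 1 and with median-of-ratios scaling. Snord32a was at -1.21 to 0.56 when single libraries were left out, positive without knockout 1, knockout 2, control 1 or control 3, and without control 1 it was at 1.84 with the block, 0.45 with median-of-ratios scaling and 0.38 with no filter. Snora81 was at -0.40 with median-of-ratios scaling, -0.45 with quantile scaling, -0.25 to 0.40 when single libraries were left out, negative without knockout 3, knockout 4, control 1 or control 2, and -0.081 and -0.10 without control 1 combined with median-of-ratios scaling and with no filter. Depth is unknown, so the counting error of the low values cannot be given.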
